A study of Mus musculus with 3 samples.

Results

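The genes followed here, in normal mouse liver, were taken as markers of non-parenchymal cells of the liver sinusoid. Of these 7 genes, 5 were taken as markers of the sinusoidal endothelium (Clec4g, Fcgr2b, Stab1, Stab2 and Lyve1). The other 2, Ecm1 and Rgs5, were taken as markers of stellate cells and pericytes. All 7 were chosen by name, and every transcript-structure event whose gene identifier is that of a member was taken. This gave 80, 78 and 85 events in replicates 1, 2 and 3, of 71716, 74243 and 74236 events in all, or 7 of the 13116 genes that had a value. An event is a first exon, a last exon, a skipped exon, a retained intron or an alternative exon end. Each event carries an FPKM (fragment count scaled to transcript length and library size), summed over the assembled transcripts that contain it.

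The 3 libraries form 1 group, and the labels give them as liver of healthy, wild-type, male mice of the C57BL/6 strain, with no treatment. The labels give no age and do not tie each replicate to an animal of its own. The spread between libraries may therefore be technical. The series concerns driver genes of hepatocellular carcinoma. Tumours were not analysed here, no contrast between groups could be made, and no test was run. In these libraries of whole liver, fewer cells of a type and less RNA per cell cannot be told apart. The libraries went against the label male: Xist, the noncoding RNA of the inactive X chromosome, was at 65.7, 34.2 and 46.4 FPKM in replicates 1, 2 and 3, and no event was listed for the Y-linked Ddx3y, Uty, Kdm5d and Eif2s3y.

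Liver sinusoids are lined by fenestrated endothelial cells without an organised basement membrane. These cells clear waste macromolecules and immune complexes from blood through scavenger receptors, lectins and Fc receptors. Stellate cells lie between this endothelium and the hepatocytes, store vitamin A and become matrix-producing cells in fibrosis. Pericytes wrap vessels, and several of their markers are shared with stellate cells.

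Shown first is a pair of coding exon choices whose listed forms differed between the libraries, picked after their values were seen. The sequences are in transcript direction and from the GRCm38 transcript sequences of GENCODE M21. Fcgr2b (ENSMUSG00000026656) lies on chromosome 1, 170958617 to 170976547, minus strand. Its cassette exon, exon 6 of Fcgr2b-201, is at chr1:170963325-170963465, is 141 bases long and is coding. It is shown between 24 bases of each neighbouring exon, with the exon in capitals, and then the join that results when it is skipped.
Fcgr2b exon included: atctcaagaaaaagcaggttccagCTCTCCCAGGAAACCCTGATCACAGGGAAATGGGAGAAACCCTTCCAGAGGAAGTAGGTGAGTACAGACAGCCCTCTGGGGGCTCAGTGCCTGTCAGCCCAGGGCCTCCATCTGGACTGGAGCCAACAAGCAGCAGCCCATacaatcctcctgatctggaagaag
Fcgr2b exon skipped: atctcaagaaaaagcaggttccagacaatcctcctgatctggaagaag

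Ecm1 (ENSMUSG00000028108) lies on chromosome 3, 95734147 to 95739569, minus strand. Its exon 3 can begin at either of a pair of acceptor sites 3 bases apart. The capitals mark the 3 bases at chr3:95738114-95738116 that only the longer exon holds. They begin at codon position 2 of the annotated reading frame, and neither form shifts that frame.
Ecm1 exon 3 long: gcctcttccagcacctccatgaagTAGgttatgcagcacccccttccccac
Ecm1 exon 3 short: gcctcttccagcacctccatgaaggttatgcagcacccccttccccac

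The 7 genes spanned a range from Ecm1 to Lyve1, and all 7 had a mean of at least 1 FPKM. Gene-level FPKM was whichever was highest of a gene's summed first exons, its summed last exons and its top internal event. Unlisted events add nothing to it. In order of the mean (± SD, n = 3 libraries), Ecm1 was at 49.1 ± 7.38, Clec4g at 23.5 ± 3.64, Fcgr2b at 17.6 ± 0.513, Rgs5 at 7.91 ± 2.33, Stab1 at 6.20 ± 1.88, Stab2 at 4.63 ± 0.893 and Lyve1 at 1.43 ± 0.226 FPKM. The ranges over libraries did not overlap between neighbours in this order, except between Rgs5 and Stab1 and between Stab1 and Stab2. Ranked by mean, Ecm1 was at 884 and Lyve1 at 8790. A mean of 1 FPKM or more was reached by 9568 genes, whose median was 5.98 FPKM.

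**Figure D1:**
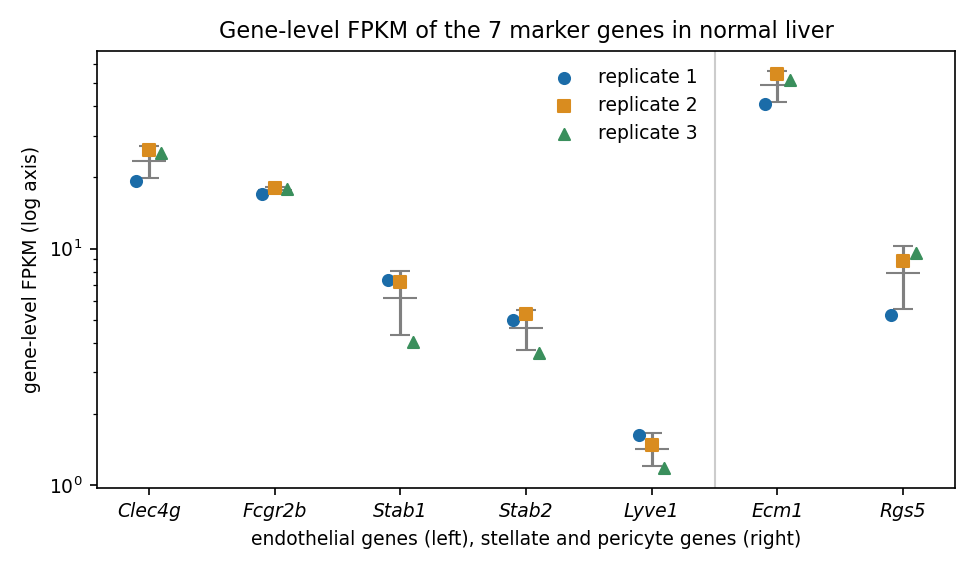
Gene-level FPKM (log axis) of the 5 endothelial and 2 stellate and pericyte genes in each of the 3 libraries, with the mean (wide dash) and SD (bar) over libraries. Ecm1 lies highest at 49.1 ± 7.38 and Lyve1 lowest at 1.43 ± 0.226; the points of Rgs5, Stab1 and Stab2 overlap.

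The members did not move together between libraries. Clec4g, Fcgr2b, Ecm1 and Rgs5 had their lowest value in replicate 1, whereas Stab1, Stab2 and Lyve1 had theirs in replicate 3. The SD of log2(FPKM + 1) over libraries had a median of 0.22 for the 7 members, beside 0.22 for all 9568 genes. It ran from 0.040 for Fcgr2b to 0.42 for Stab1, and 2.93% of all genes had a value at or below that of Fcgr2b.

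Clec4g encodes LSECtin, a C-type lectin of sinusoidal endothelium that binds glycoproteins of pathogens and cells. The gene (ENSMUSG00000074491) lies on chromosome 8, 3707064 to 3720651, minus strand. It had 19.3, 26.0 and 25.2 FPKM in replicates 1, 2 and 3, with replicate 1 apart from the other two libraries. All of it was carried by 1 first exon (3720591 to 3720651) and 1 last exon (3716064 to 3716556), those of Clec4g-202, a transcript of 9 exons and 1242 bases. The 2 annotated transcripts that run on to 3707064 had no listed end. Of the 8 genes of the neighbouring C-type lectin and Cd23 cluster, only Cd209a and Fcer2a, the gene of Cd23, were listed, at 0.305 ± 0.0792 and 0.297 ± 0.150 FPKM.

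Fcgr2b is the inhibitory receptor for the constant part of IgG, and in sinusoidal endothelium it takes up small immune complexes. Its gene-level values were 17.0, 17.9 and 17.9 FPKM, the narrowest spread of the 7 members with a coefficient of variation of 2.91%. The main last exon (170958617 to 170961100) carried 16.6, 16.9 and 16.4 FPKM. A second last exon at 170964333 to 170965824, that of the retained-intron transcript Fcgr2b-205, held 2.46, 5.59 and 8.13% of the last-exon sum. No first exon was listed in replicates 1 and 2. In replicate 3 a first exon at 170976637 to 170976729 had 13.4 FPKM; it begins 182 bases upstream of the outermost start in GENCODE M21, and no annotated transcript carries it.

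The listed forms of the Fcgr2b cassette exon differed between the libraries. The exon belongs to the cytoplasmic tail. As background, the receptor form that holds it is typical of B lymphocytes, and the form without it is typical of macrophages and sinusoidal endothelium. The skipped form had 12.1, 16.9 and 13.8 FPKM in replicates 1, 2 and 3. The exon of 141 bases was listed as included only in replicate 1, at 4.42 FPKM, which was 26.6% of the forms listed there. That this form was unlisted in replicates 2 and 3 is not evidence of its absence there. A shorter version of 57 bases, that of Fcgr2b-203, had 0.0486 FPKM in the same library. The listed forms summed to 16.6, 16.9 and 13.8 FPKM, below the last-exon sums of 17.0, 17.9 and 17.9 FPKM and farthest below in replicate 3, so part of the gene's FPKM belongs to neither form. The 6 B cell markers summed to 41.5, 28.7 and 43.1 FPKM, most of it Ighm at 36.9, 21.9 and 38.1 FPKM. Pax5, a transcription factor of the B lineage, was not listed. The 13 Kupffer cell and macrophage markers, all of them listed, summed to 107, 162 and 149 FPKM, lowest in replicate 1. Of these, Adgre1 was at 0 in replicates 1 and 2, Msr1 in replicate 1 and Cd163 in replicate 2. The part of B cells and macrophages in the exon's use was not tested.

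The other Fc receptor genes were listed in all libraries. The neonatal receptor Fcgrt, which recycles IgG, was at 86.1 ± 10.3 FPKM. The signalling chain Fcer1g was at 11.6 ± 1.70 FPKM. The activating receptors were lower than Fcgr2b in each library, with Fcgr4 at 3.14 ± 0.559, Fcgr3 at 2.77 ± 0.453 and Fcgr1 at 0.879 ± 0.130 FPKM.

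Stab1 and Stab2 encode the stabilins, large scavenger receptors of sinusoidal endothelium; Stab2 is also its main receptor for the clearance of hyaluronan. Stab1 (ENSMUSG00000042286) lies on chromosome 14, 31139013 to 31168641, minus strand, and had 7.34, 7.24 and 4.03 FPKM. Stab2 (ENSMUSG00000035459) lies on chromosome 10, 86841198 to 87008025, minus strand, and had 5.01, 5.28 and 3.61 FPKM. Replicate 3 was lowest for both. On the log2(FPKM + 1) scale Stab2 minus Stab1 was -0.47, -0.39 and -0.12 in replicates 1, 2 and 3, or -0.33 ± 0.18 (SD, n = 3). At gene level Stab1 was thus the higher gene in each library, although the ranges overlapped. The gene-level value was a last-exon sum for Stab1 and an internal event for Stab2. By the largest single event, Stab2 was the higher gene in replicate 3, at 3.61 against 3.46 FPKM.

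Each full-length stabilin transcript has 69 exons, with 7999 bases for Stab1-201 and 8228 for Stab2-201, and the listed FPKM fell mostly near the 3' end. For Stab1 the annotated first exon at the gene's 5' end was not listed in any library. The listed first exons were internal ones, 23.2 to 27.8 kb into the gene, and the leading one changed between libraries. In replicate 1 it was that of the retained-intron transcript Stab1-209, with 75.4% of the first-exon sum, in replicate 2 that of Stab1-204 with 83.9%, and in replicate 3 that of Stab1-212 with 51.1%. The main last exon (31139013 to 31139203) had 5.45, 6.74 and 3.46 FPKM. It overlaps, on the other strand, a listed last exon of the neighbouring gene, and no source used here gives the strand setting of the libraries.

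A splice junction at 31147277 to 31147487, which among annotated transcripts only full-length Stab1-201 carries, ran the other way. It had 0.476, 1.09 and 2.58 FPKM, which was 6.49, 15.1 and 64.1% of the gene-level value. Nearer the 3' end, the junctions at 31145364 to 31145775 and at 31143014 to 31143118 are also carried only by Stab1-201. They were not listed in replicate 1 and had 1.09 and 2.58 FPKM in replicates 2 and 3. The 0.476 FPKM of replicate 1 is thus not shown to be full-length transcript. For Stab2 the annotated first exon (87007777 to 87008025) had 0.0847, 0.919 and 1.19 FPKM, or 1.69, 17.4 and 32.8% of the gene-level value. Annotated transcripts Stab2-202 and Stab2-204 share this first exon with Stab2-201, so it is not specific to the full-length form. In replicate 1 its 0.0847 FPKM equals that of the Stab2-204 last exon (86990829 to 86990865). Both the Stab1 junction at 31147277 to 31147487 and the Stab2 first exon were lowest in replicate 1 and highest in replicate 3, unlike the gene-level values.

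**Figure D2:**
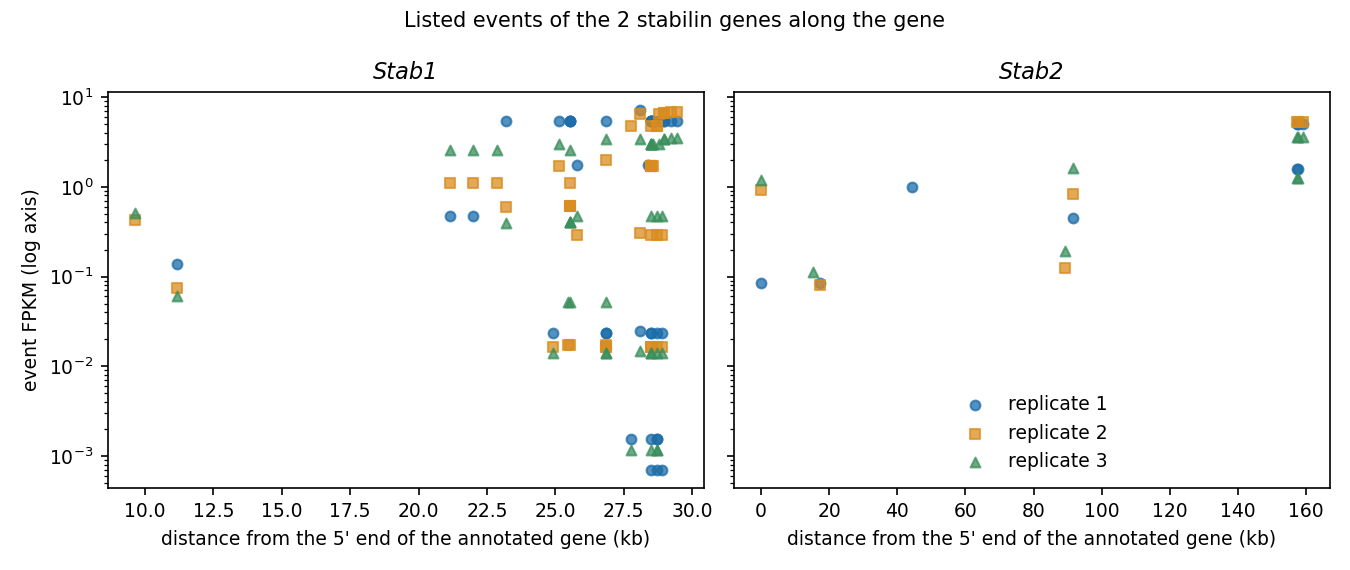
FPKM (log axis) of every listed Stab1 and Stab2 event against its distance in kb from the 5' end of the annotated gene, by library; each point is 1 event. Values above 3 FPKM lie only from 23.2 kb on in Stab1 and from 157 kb on in Stab2, and at the Stab2 start replicate 1 is lowest at 0.0847 FPKM.

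The first-exon measure given for Stab2 was taken over all protein-coding genes with at least 1 FPKM in each library. It used the first exon of the longest coding transcript. For the 565 genes whose transcript has 7000 bases or more, the first exon was at a median of 7.07, 42.9 and 69.5% of the gene-level value in replicates 1, 2 and 3. For the 2398 genes with a transcript under 2000 bases the medians were 99.2, 99.3 and 99.4%. The libraries therefore differed in how much of a long transcript's 5' end was listed, and hardly differed for short transcripts. The order for long transcripts was that of the Stab2 first exon. The Stab1 junction at 31147277 to 31147487 had the same order, but it is not a first exon. The annotated Stab1 first exon was not listed in any library. The part of this listing difference in the stabilin values was not tested. Rgs5, with 4096 bases, Ecm1, with 1900, and Clec4g, with 1242, had first-exon sums equal to their gene-level values in each library.

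**Figure D3:**
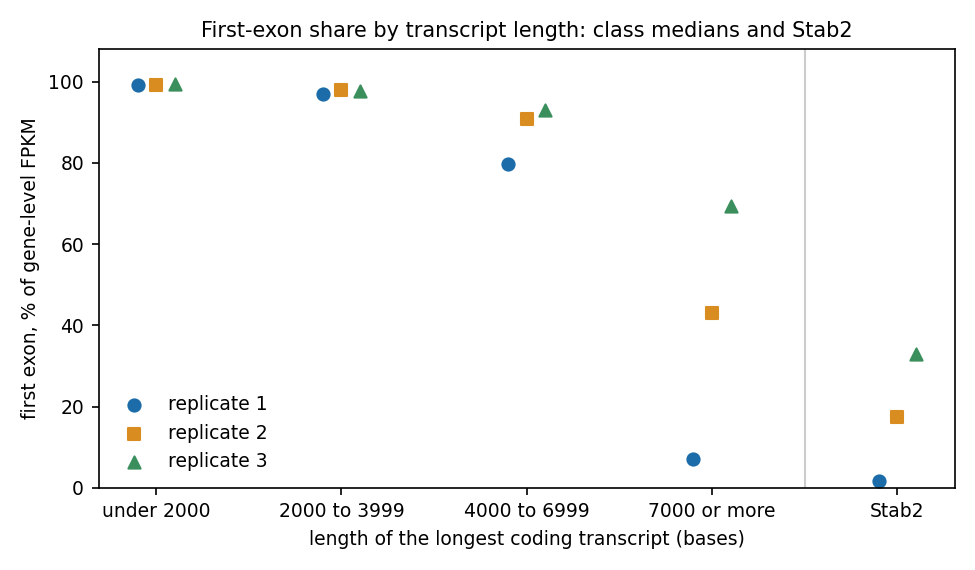
First-exon FPKM of the longest coding transcript as a percent of gene-level FPKM, as the median over genes in 4 classes of transcript length, and the value of Stab2 at the right; points are the 3 libraries. The medians lie between 99.2 and 99.4% under 2000 bases and at 7.07, 42.9 and 69.5% from 7000 bases on.

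Stab2 also had a retained intron and a cassette exon. The intron between 86849053 and 86850557 was retained in 1.57, 0 and 1.25 FPKM and spliced in 5.01, 5.28 and 3.61 FPKM, so the retained form was 23.8, 0 and 25.6% of both. The exon at 86916388 to 86916509, which no annotated transcript holds, was listed as included in replicate 1 at 0.446 FPKM. Its skipping, as in Stab2-201, was listed in replicates 2 and 3 at 0.837 and 1.63 FPKM. Each library thus listed a single form of this exon, at levels under those near the 3' end.

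Lyve1 encodes a hyaluronan receptor of lymphatic and sinusoidal endothelium. The gene (ENSMUSG00000030787) lies on chromosome 7, 110850607 to 110863239, minus strand. It was the lowest member, at 1.63, 1.48 and 1.19 FPKM, highest in replicate 1. A first exon (110862784 to 110862953) was listed in replicates 1 and 2 only. It begins at the start of the retained-intron transcript Lyve1-202, 286 bases inside the gene, and shares its splice site with the coding Lyve1-201. The last exon (110850607 to 110852358) was listed in each library, at 1.57, 1.35 and 1.19 FPKM. The gene-level value was the first exon in replicates 1 and 2 and the last exon in replicate 3. The lymphatic markers gave little beside it: Pdpn was not listed, Ccl21a had 0, 0.0893 and 0.220 FPKM, and Prox1, which hepatocytes also express, was at 12.4 ± 2.05 FPKM. Of 6 genes of hyaluronan handling, 3 were listed. The hyaluronidases Hyal2 and Hyal1 had 20.4 ± 0.118 and 8.90 ± 5.11 FPKM, with Hyal1 at 3.01 FPKM in replicate 1 against 11.7 and 12.0 in the other libraries, and the receptor Cd44 had 1.68 ± 0.808 FPKM. Hmmr and Has2 were not listed, and Tmem2 has no entry under that symbol in the annotation.

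Ecm1 encodes a secreted glycoprotein of the extracellular matrix that, in liver, is known to hold latent TGF-beta inactive. It was the highest member, at 40.7, 54.7 and 51.8 FPKM, with replicate 1 apart from the others. In whole liver this FPKM cannot be assigned to stellate cells or to any other cell type. All of it began at 1 first exon (95739373 to 95739569). The main last exon (95734147 to 95734470) held 96.6, 83.5 and 92.4% of the last-exon sum, and an inner last exon at 95736600 to 95736791, that of Ecm1-209, held 3.34, 16.5 and 7.47%. Replicate 2 was the highest for the inner end, at 9.03 FPKM against 1.36 and 3.87. The joined exons 3 and 4 that, among annotated transcripts, only Ecm1-209 carries had 1.36, 2.44 and 1.61 FPKM. The inner end in replicates 2 and 3 was thus not all Ecm1-209.

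The listed share of each acceptor at Ecm1 exon 3 changed more than the gene's level. The short form, which lacks the 3 bases in capitals above, was 0.0891, 12.1 and 44.5% of the listed forms in replicates 1, 2 and 3. Joined to the exon 4 of 81 bases it had 0, 6.59 and 23.0 FPKM, and the long form 39.3, 45.7 and 27.1 FPKM. The listed share of the short form thus ranged from nearly none to close to that of the long form. These are FPKM of assembled transcripts and not counts of reads across each junction. In replicates 1 and 2 the main last exon had the same FPKM, 39.3 and 45.7, as the long form joined to the exon 4 of 81 bases. The acceptor and the last exon are therefore not shown to vary apart there. Skipping of exon 3 was at most 0.0103%. Exon 4 was steadier, and a longer version of 135 bases had 3.44, 4.50 and 3.20% of the exon 4 sum. The 54 bases that the long exon 4 adds, at chr3:95737889-95737942, are in capitals, followed by the start of the usual exon.
Ecm1 exon 4 long: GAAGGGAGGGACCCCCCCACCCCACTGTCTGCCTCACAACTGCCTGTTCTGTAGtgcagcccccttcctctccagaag

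**Figure D4:**
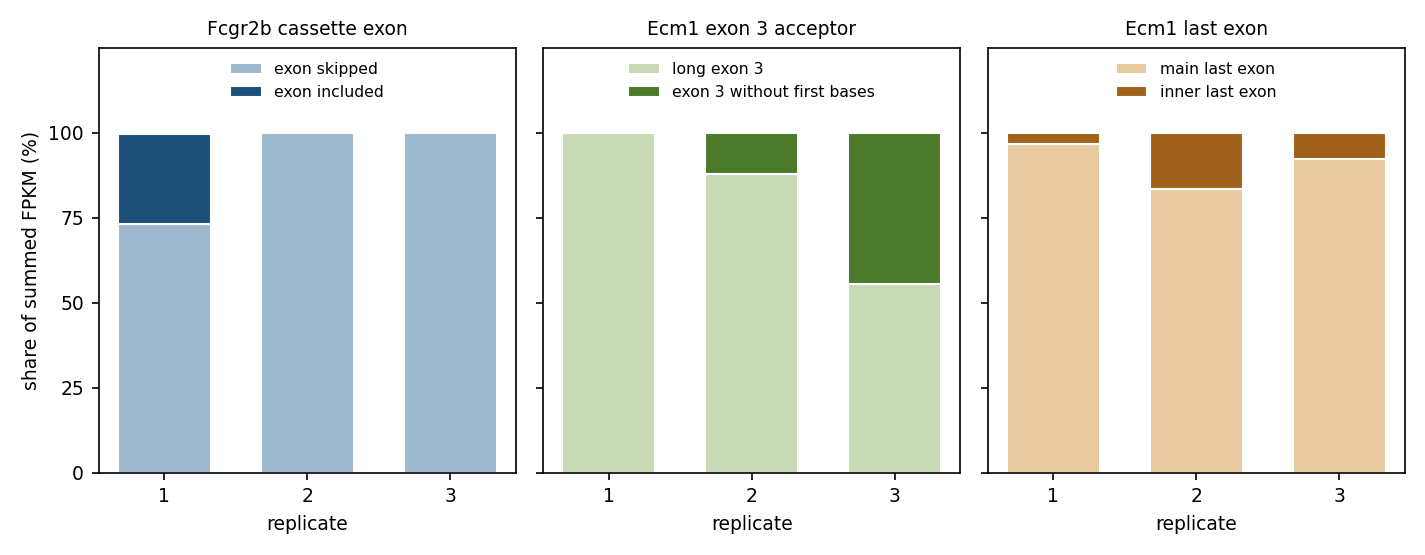
Share of summed FPKM (percent) taken by the forms of the Fcgr2b cassette exon, the Ecm1 exon 3 acceptor and the 2 main Ecm1 last exons in each library. The included Fcgr2b exon appears in replicate 1 alone at 26.6%, and the short Ecm1 exon 3 takes 0.0891, 12.1 and 44.5% in replicates 1, 2 and 3.

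Among 8 genes of latent TGF-beta handling 6 were listed and 3 had a mean of at least 1 FPKM. These were the integrin chain Itgav at 3.10 ± 0.661, the ligand Tgfb1 at 2.88 ± 0.246 and Lrrc32, which anchors latent TGF-beta on cells, at 2.66 ± 0.297 FPKM. The integrin chains Itgb6 and Itgb8 were not listed.

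Rgs5 encodes a GTPase-activating protein that shortens G protein signalling and marks pericytes. The gene (ENSMUSG00000026678) lies on chromosome 1, 169655501 to 169695813, plus strand. It had 5.25, 8.89 and 9.60 FPKM, lowest in replicate 1, with a coefficient of variation of 29.5%. A single first exon (169655501 to 169655621) and a single last exon (169692179 to 169695813) were listed, those of Rgs5-201. Of 10 other Rgs genes 9 were listed and Rgs18 was not. Rgs16 was the highest, at 107, 36.6 and 103 FPKM, lowest in replicate 2, followed by Rgs3 at 7.18 ± 2.12 and Rgs12 at 1.82 ± 0.556 FPKM. Rgs4, the other pericyte marker of the family, was listed in replicate 3 alone, at 0.400 FPKM.

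For Clec4g, Ecm1 and Rgs5 the listed first exon begins exactly at the RefSeq start. The 100 bases upstream of it (RefSeq, GRCm38.p6) are shown for these 3 genes, with matches to any of 5 motifs in capitals. The first was AGGAAG, a core letter string known from ETS family factors. For GATA family factors the letters were AGATAA. For large MAF factors the letters were TGCTGAC, and for MEIS factors they were TGACAG. The TATA box was searched as TATAAA. Both strands were searched, none of the 5 strings contains another, and matches may overlap, as the pair of ETS strings upstream of Clec4g does. The windows are chr8:3720652-3720751 (minus strand), chr3:95739570-95739669 (minus strand) and chr1:169655401-169655500 (plus strand).
Clec4g upstream: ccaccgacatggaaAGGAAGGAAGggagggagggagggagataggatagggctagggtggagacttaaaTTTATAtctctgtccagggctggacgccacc
Ecm1 upstream: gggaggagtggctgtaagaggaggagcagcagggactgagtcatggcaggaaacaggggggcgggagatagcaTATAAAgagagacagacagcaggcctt
Rgs5 upstream: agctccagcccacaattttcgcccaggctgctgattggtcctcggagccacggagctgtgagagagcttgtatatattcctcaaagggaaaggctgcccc
The TATA letters begin 31 bases before the Clec4g start, on the reverse strand, and 27 bases before the Ecm1 start; Rgs5 has no match in this window. Over the whole RefSeq window of 300 bases, 6 of the 7 members had an entry, all but Lyve1. TATAAA was in 2 of these 6, beside 13.6% of all 32851 windows, and AGGAAG was in Clec4g, Stab1 and Stab2, beside 35.4%. TGACAG was in Stab1 and Stab2, beside 19.2%, AGATAA in Rgs5, beside 11.2%, and TGCTGAC in none, beside 4.67%.

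Other genes were measured to place the members: markers of the same cell types, markers of other liver cells, and genes of the members' families and pathways. Of 169 genes in 17 lists, 142 were listed and 101, or 59.8%, had a mean of at least 1 FPKM, beside 42.0% of all annotated protein-coding genes. Of 13 other genes of sinusoidal identity and endocytosis, 12 were listed and 11 reached 1 FPKM. They were led by the fatty acid receptor Cd36 at 49.2 ± 19.3, the lipoprotein receptor Scarb1 at 42.7 ± 10.1, both of which hepatocytes also express, and the water channel Aqp1 at 24.3 ± 4.74 FPKM; Gpr182 was not listed. Of 17 pan-endothelial genes 15 reached it, led by the TGF-beta co-receptor Eng at 10.2 ± 2.49, Egfl7 at 9.29 ± 1.41 and the VEGF receptor Kdr at 5.29 ± 1.19 FPKM, and S1pr1 was not listed. Clec4g and Fcgr2b were above each of the 16 listed ones in mean level. Of 14 endothelial transcription factors 7 reached it, led by Hhex at 18.2 ± 1.95, a factor that hepatocytes share, Klf2 at 4.98 ± 0.544 and Ets1 at 4.77 ± 0.319 FPKM; Sox18 and Tal1 were not listed. Large-vessel and angiocrine genes reached it in 4 of 13 cases, with Plvap at 21.8 ± 2.35, Ephb4 at 5.64 ± 1.29 and the Wnt amplifier Rspo3 at 1.49 ± 0.303 FPKM, and Cldn5, Wnt9b, Thbd and Edn1 were not listed.

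Stellate and pericyte genes were counted in the same way. Of 17 stellate genes 13 reached 1 FPKM, with the proteoglycan Dcn at 71.3 ± 8.57, the chemokine Cxcl12 at 55.9 ± 5.49 and the collectin Colec11 at 16.2 ± 1.67 FPKM; Lrat, which esterifies retinol for storage, and Tcf21 were not listed. Dcn and Cxcl12 thus had higher means than Ecm1. Of 11 pericyte and smooth muscle genes 4 reached it, and 7 had at least 0.1 FPKM, beside 14 of the stellate genes. They were led by the channel subunit Abcc9 at 4.39 ± 0.459, Acta2 at 2.13 ± 0.561 and Tagln at 1.93 ± 1.09 FPKM, all below Rgs5 in mean, and Notch3 and Cspg4 were not listed. Of 14 fibroblast and matrix genes, all listed, 10 reached 1 FPKM, with Sparc at 14.8 ± 0.982, Lum at 3.51 ± 0.529 and Col3a1 at 3.41 ± 0.601 FPKM. Hepatocyte genes were far higher, with Alb at 27659 ± 2671, Apoa2 at 9704 ± 3897 and Fabp1 at 6484 ± 1159 FPKM. Kupffer cell genes were led by Cd5l at 28.6 ± 9.71, C1qa at 27.1 ± 2.51 and C1qb at 24.4 ± 3.32 FPKM. Among cholangiocyte genes 2 of 6 reached it, Spp1 at 47.5 ± 24.4 and Epcam at 1.08 ± 0.201 FPKM, with Sox9 at 0.791 ± 0.474 and Cftr not listed. Of 6 B cell genes 3 reached it: Ighm, Cd79a at 2.38 ± 0.858 and Cd79b at 2.19 ± 0.196 FPKM.

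**Figure D5:**
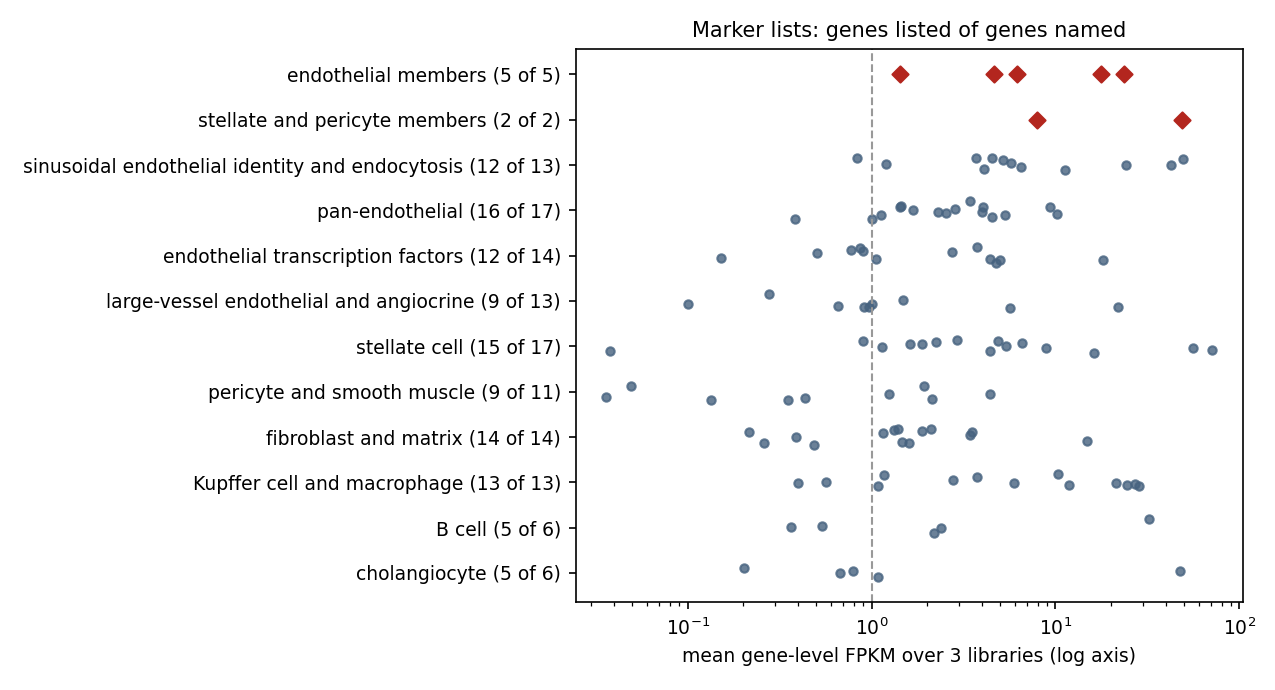
Mean gene-level FPKM over 3 libraries (log axis) of the members (diamonds) and of the genes of 10 marker lists (dots), with the number listed of the number named; the dashed line is 1 FPKM. The 7 members lie right of the line, and 4 of 11 pericyte and smooth muscle genes do.

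The context genes closest to each member in their deviation from their own mean log2(FPKM + 1) were also found, among 101 candidates. The measure is a Euclidean distance over only 3 libraries and is a description. Closest to Clec4g were Cyp2e1, Cdh5 and Calcrl, at distances of 0.053, 0.062 and 0.064. Fcgr2b had Hyal2, Ets1 and Ptprb, at 0.062, 0.073 and 0.076. Ecm1 had Cdh5, Calcrl and Gdf2, at 0.038, 0.072 and 0.073, so 2 endothelial genes were close to both Clec4g and Ecm1. Stab1 had Col1a2, Flt4 and Col6a1, at 0.12, 0.15 and 0.20, and Stab2 had Fabp1, Col5a1 and Col6a1, at 0.053, 0.074 and 0.078. Lyve1 had Hhex, Epcam and Abcc9, at 0.022, 0.023 and 0.069, and Rgs5 had Lmo2, Ngfr and Kdr, at 0.15, 0.15 and 0.17. The sets crossed cell types, with a hepatocyte gene among those of Clec4g and of Stab2.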

How the data were processed

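RNA sequencing tables of 3 liver libraries (1 group, WT-liver replicates 1 to 3) were used. The authors deposited one FPKM value per event, per the file headers. Build mm9 and the tools HISAT2 2.0.1, cutadapt 1.9.1, DESeq2 and HTSeq 0.6.1 appear in the submitters' processing notes without roles, and no source used here names the tool behind the tables. They hold no counts, so depth is unknown and no counting interval could be given. Positions were read as GRCm38, because 82.0, 82.2 and 82.7% of first exons had exactly the position and strand of a GENCODE M21 first exon.

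Identical rows (1440 to 1519 per library) were removed. First and last exons were given to genes by exact position, by splice site, or by identifier on the gene's strand (3.82 to 4.66% of ends); 2.06 to 2.49% were not placed. Internal events of other genes were used where a locus held 1 gene. For the members, every event with the member's identifier was used, whatever else the locus held. Members and other genes were thus not treated alike in this step. Events at 0 are not listed, so a missing gene or event is not evidence of silence: Gapdh had 0, 0 and 6.53 FPKM. A pseudocount of 1 was used for log2 values. The calculation was tested on simulated data that held complete annotated first and last exons only. That test could not cover unlisted ends or values that rest on an internal event. Python 3.11.15, pandas 2.3.3 and numpy 2.4.6 were used.

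The members and lists were chosen with earlier results of these data known. Named genes were the members, the 3 highest of each list, a list's unlisted genes where 5 or fewer, and the 3 nearest genes per member; other genes named were chosen after their values were seen. So were the gene-level definition, the strand condition on identifiers, the exon choices described, the sequences printed and the measure by transcript length. The alternatives tried are given at the end.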

Additional observations from a re-analysis of the deposited data

How the results depend on the processing

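The median log2(FPKM + 1) of the 5 endothelial genes was 2.81; it was 1.28 with first exons alone and 4.28 after rescaling each library to the same total, which multiplies all genes alike within a library. The mean of Stab2 minus Stab1 stayed negative under all alternatives tried, at -1.51 with first exons alone and -2.24 with last exons alone. The main Stab2 last exon was not listed. With the largest single event the mean was -0.23, but Stab2 was the higher gene in replicate 3. The median SD of the 7 members was 0.54 with first exons alone and ranged from 0.061 to 0.26 when 1 library was left out; it was lowest without replicate 3 and 0.070 without replicate 1. Counts within lists moved by over 1.5 times in several cases. With first exons alone they fell from 15 to 8 for pan-endothelial, 10 to 5 for fibroblast, 3 to 1 for latent TGF-beta and 2 to 1 for cholangiocyte genes. At a minimum of 0.1 FPKM they rose from 7 to 12 for endothelial transcription factors, 4 to 9 for large-vessel, 4 to 7 for pericyte, 4 to 9 for Rgs, 3 to 5 for B cell, 3 to 5 for latent TGF-beta, 2 to 5 for cholangiocyte, 1 to 2 for lymphatic and 0 to 2 for C-type lectin genes. The pooled count over lists (101) was 75 and 138 under these settings. The counts of members at 1 FPKM or more kept within 1.5 times under the alternatives tried for them. The endothelial count still fell from 5 to 4 with first exons alone and with last exons alone. Stab2 was the gene lost, at 0.730 and 0.527 FPKM, so its place above 1 FPKM rests on an internal event. The 4 isoform shares (Fcgr2b exon, Ecm1 exons 3 and 4, Stab2 intron) were recomputed in fewer ways. Only keeping identical rows and leaving out events under 0.1 FPKM were tried, and the shares hardly moved. No library was left out for them, so this does not show that the shares are stable. With first exons alone Fcgr2b was at 4.47 and Stab2 at 0.730 FPKM. The cause was not tested. No paired analysis was possible because there is 1 group. Unknown depth limits all values near 0.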
